A study of Mus musculus with 6 samples.

Results

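The 7 genes of the main fibrillar collagen chains, Col1a1, Col1a2, Col3a1, Col5a1, Col5a2, Col5a3 and Col11a1, were followed through RNA-seq of 2 sorted cell populations from mouse mammary tumors. They were picked by gene symbol out of 41388 Ensembl genes, which include 44 collagen chain genes in all. Fibrillar collagens are secreted as procollagens in which 3 chains wind into a triple helix with a glycine repeated regularly along each chain. After the propeptides have been cut off outside the cell, the trimers line up into the fibrils that give connective tissue and tumor stroma their tensile strength. In connective tissue these genes are known above all as products of fibroblasts, and dense fibrillar collagen is a known feature of breast tumors.

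The samples came from FVB/N-TgN(MMTVPyVT)634Mul/J females, mice that carry the polyoma middle T oncogene driven by the MMTV promoter, a mouse mammary tumor virus sequence that is active in the mammary epithelium. The TICs, or tumor-initiating cells, were CD24+CD90+CD45- cells (3 samples). The other 3 samples held CD45- cells outside the CD24+CD90+ gate, the non-CD24+CD90+ tumor cells, called comparison cells from here on. The series description instead names cells that lack both markers, so single-positive cells may or may not be in this group. Mice were 12 weeks old, 4 sorts were pooled into each sample, neither group was treated, and the tumors were dissociated with an enzyme mix that contains collagenase. The sort removed dead cells and CD45+ leukocytes and, as far as the methods say, no fibroblasts, pericytes or endothelial cells.

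Total counts were between 6781239 and 8450038 in comparison cells and between 8114933 and 9100552 in TICs, and each of the 7 genes had at least 307 counts in every sample. On the first principal component of all expressed genes (31% of the variance), TIC replicate 3 stood apart at 165.3, while the other 5 samples lay between -56.9 and -5.5. On the second (22.7%), TIC replicate 2 stood apart at -135.9, and the others lay between -8.7 and 66.4. Levels are CPM, each sample's counts scaled to its TMM-normalized library size, and differences were tested with exactTest of edgeR at a Benjamini-Hochberg adjusted p below 0.1 over the 12192 genes that exceeded 1 CPM in 3 or more samples. Each sample came from a pool of tumors of 4 mice, so the spread within a group is that between pools. Of the sort markers, Cd24a reached 313.7 to 438.0 CPM in TICs and 400.4 to 599.7 CPM in comparison cells, and Thy1, the gene of CD90, reached 70.1 to 206.1 CPM against 21.5 to 75.6 CPM. Both overlapped between the groups, with adjusted p = 0.98 and 0.35 from exactTest. Ptprc, the gene of CD45, had 33 counts in 1 comparison sample, replicate 1, and none in the other 5 samples, a count of 0 that allows up to 0.33 to 0.44 CPM there by counting error alone. The epithelial markers Epcam and Krt8 were plainly present in both groups, at 1111.2 to 1540.7 CPM and 248.7 to 463.7 CPM.

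Of the 7 fibrillar collagen genes, 5 were higher in TICs: both chains of collagen I, the chain of collagen III, and the α1 and α2 chains of collagen V. Their levels rose between 2.47-fold (Col5a1) and 4.14-fold (Col5a2). Col5a3 and Col11a1 did not pass the test, and 0 were lower, also at an unadjusted p below 0.05, where 3.11% of all genes were lower and 4.74% higher. Among all expressed genes 1.36% were called higher and 0.189% lower by the same test of edgeR. The median log2 fold change was 1.54 over the 7 genes and -0.01 over all 12192. The edgeR quasi-likelihood test, under which 0.402% of all genes were called higher and 0.0082% lower, called 5 members higher and 0 lower. DESeq2, under which 1.89% of all genes were higher and 0.615% lower, gave the same counts.

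**Figure D1:**
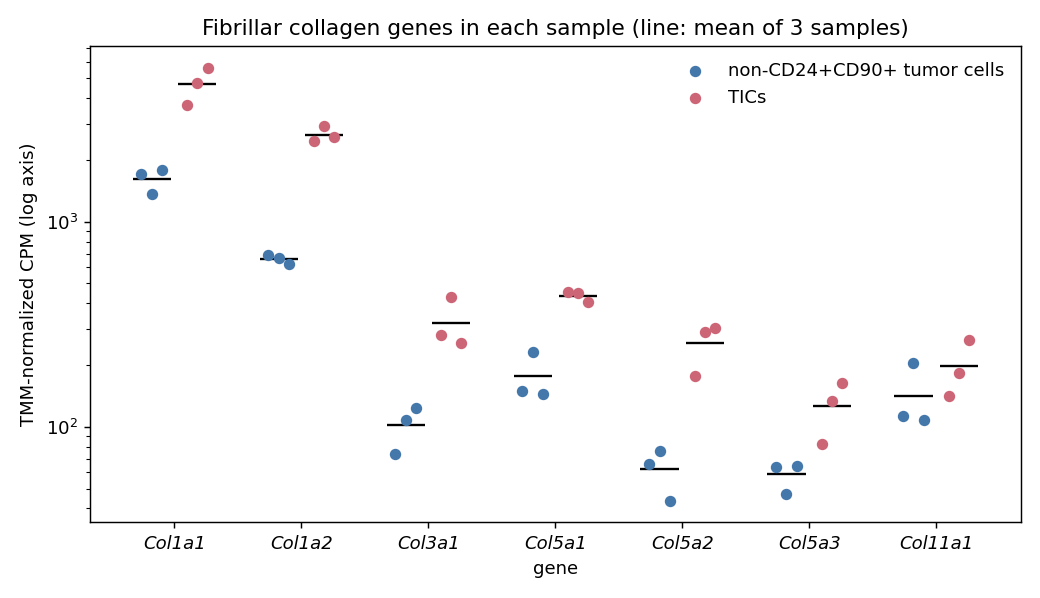
TMM-normalized CPM (log axis) of each of the 7 genes, with 1 point per sample and a line at the mean of 3 samples. In all genes but Col11a1 the 3 TIC samples lie above the 3 comparison samples.

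Col1a1 (chromosome 11 of GRCm38, 94936224 to 94953042, plus strand) encodes the α1 chain of collagen I, the main collagen of skin, bone and tumor stroma. It had 1700.3, 1363.1 and 1783.2 CPM in replicates 1 to 3 of the comparison cells and 3691.5, 4765.2 and 5643.0 CPM in TICs. The lowest TIC sample was thus 2.07 times the highest sample of the other group. The means were 4699.9 ± 977.4 and 1615.5 ± 222.5 CPM (SD, n = 3), a log2 fold change of 1.54 with a standard error of 0.28 (adjusted p = 0.00012 from exactTest of edgeR). Within its library, Col1a1 ranked 41st to 56th by count among all genes in comparison cells and 7th to 12th in TICs.

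Col1a2 (chromosome 6, 4504814 to 4541544, plus strand) encodes the α2 chain, which joins a pair of α1 chains in the common collagen I trimer. Its levels were 691.0, 665.0 and 623.7 CPM in comparison cells against 2463.9, 2925.0 and 2577.4 CPM in TICs. The samples of each group lay close together, with a coefficient of variation of 5.14% and 9.05%, and the gap between the groups was 3.57-fold. Of all 12192 genes it had the smallest p-value, with a log2 fold change of 2.01 and a standard error of 0.26 (adjusted p = 2.4e-09 from exactTest of edgeR). The quasi-likelihood test of edgeR gave an adjusted p of 0.0037. Its rank by count moved from 168th to 190th in comparison cells to 19th to 28th in TICs.

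Col3a1 (chromosome 1, 45311538 to 45349706, plus strand) encodes the single chain of collagen III, a homotrimer that forms thin fibrils together with collagen I. It was measured at 73.4, 107.4 and 124.0 CPM in comparison cells and at 279.6, 427.7 and 255.4 CPM in TICs. Every TIC sample was above every other sample, and replicate 2 was the highest. The log2 fold change was 1.66 with a standard error of 0.33 (adjusted p = 0.00066 from exactTest of edgeR, and 0.054 from its quasi-likelihood test).

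Collagen V is a minor collagen that sits inside collagen I fibrils and is known to be needed to start them and to set their width. Its usual trimer holds a pair of α1 chains and an α2 chain, and a rarer form contains the α3 chain. Col5a1 (chromosome 2, 27886425 to 28039514, plus strand) had 150.2, 232.7 and 145.1 CPM in comparison cells and 454.0, 447.6 and 405.4 CPM in TICs. The TIC samples were nearly level, while replicate 2 of the other group stood above its partners. The log2 fold change was 1.31 with a standard error of 0.30 (adjusted p = 0.0057 from exactTest of edgeR). This call depended on which comparison sample was left out: without replicate 1 of the comparison cells the adjusted p was 0.10, with a log2 fold change of 1.22, and without replicate 3 it was 0.13, with 1.19. Without replicate 2, the highest of them, it was 0.012, with 1.56 (all from exactTest of edgeR).

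Col5a2 lies next to Col3a1 on chromosome 1 (45374321 to 45503282, minus strand), with 24614 bases between the facing ends of the genes. It rose from 65.7, 76.5 and 43.7 CPM to 177.0, 289.1 and 303.5 CPM, a fold close to that of Col1a2. TIC replicate 1 was the lowest TIC sample and still 2.31 times the highest comparison sample. The log2 fold change was 2.05 with a standard error of 0.34 (adjusted p = 1.6e-05 from exactTest of edgeR, and 0.029 from its quasi-likelihood test).

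Col5a3 (chromosome 9, 20770050 to 20815067, minus strand), the α3 chain, had 64.0, 47.2 and 64.7 CPM in comparison cells and 82.2, 133.7 and 162.9 CPM in TICs. The groups did not overlap, but TIC replicate 1 was only 1.27 times the highest sample of the other group. The log2 fold change of 1.11 had a standard error of 0.37 and a 95% interval of 0.38 to 1.83 before adjustment, and it did not pass (adjusted p = 0.16 from exactTest of edgeR). Leaving out TIC replicate 1 put it past the threshold, with a log2 fold change of 1.35 (adjusted p = 0.027).

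Col11a1 (chromosome 3, 114030540 to 114220718, plus strand) encodes the α1 chain of collagen XI, a close relative of collagen V that nucleates fibrils in cartilage and is known from activated stroma of carcinomas. Its levels were 113.0, 203.8 and 107.4 CPM in comparison cells and 141.3, 184.0 and 265.6 CPM in TICs. Replicate 2 of the comparison cells exceeded both TIC replicates 1 and 2. The log2 fold change was 0.48 with a standard error of 0.36 and a 95% interval of -0.23 to 1.18 (adjusted p = 0.94 from exactTest of edgeR), which leaves room for anything from a small decrease to a rise as large as that of Col5a3. In total 6 of the 7 genes, all but Col11a1, had every TIC sample above every comparison sample, compared with 7.69% of all expressed genes, and 0 had every TIC sample below, compared with 7.55%.

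**Figure D2:**
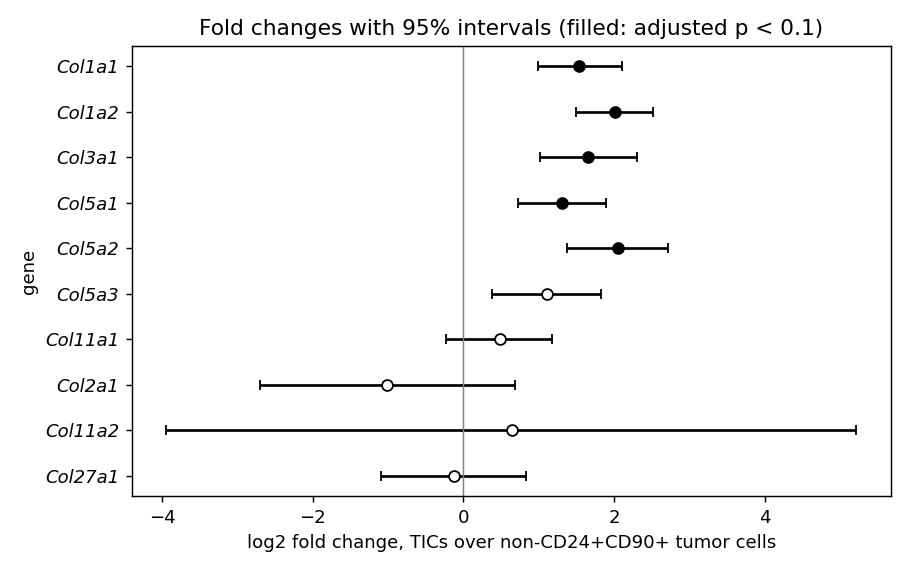
Log2 fold change of TICs over comparison cells from edgeR, with 95% intervals, for the 7 genes and the 3 further fibrillar collagen genes that passed the filter on low counts. Filled points passed an adjusted p of 0.1 (5 genes, from 1.31 to 2.05), and the intervals of Col11a1, Col2a1, Col11a2 and Col27a1 include 0.

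Of the remaining fibrillar chains, 0 of 3 tested were called by exactTest, the quasi-likelihood test or DESeq2, and 0 had an unadjusted p below 0.05. Col27a1, a chain of cartilage and some epithelia, had 38.8 to 112.8 CPM in TICs and 44.0 to 115.7 CPM in comparison cells, with a log2 fold change of -0.13 and a standard error of 0.49 (adjusted p = 1 from exactTest of edgeR). Col2a1, the chain of cartilage collagen II, had 3.42 to 17.8 CPM in TICs and 16.3 to 28.5 CPM in the other group (log2 fold change -1.01, standard error 0.87, adjusted p = 0.99 from exactTest). The counts of Col11a2, the α2 chain of collagen XI, were 0, 98 and 0 in TICs and 41, 12 and 0 in comparison cells. Col24a1 had 9 counts in replicate 3 of the comparison cells and 0 in every other sample, and was not tested.

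The start sites of 3 of the genes that rose (Col1a2, Col3a1, Col5a1) and of Col11a1, which did not pass, are shown with the 150 bases before each RefSeq transcription start (GRCm38.p6, C57BL/6J, read 5′ to 3′ in the direction of the gene), so that the promoters of genes that moved together can be set beside one that did not pass. Capitals mark matches, on either strand, to the CCAAT box (CCAAT), the GC box (GGGCGG) and the TATA box (TATAAA), the binding words known for NF-Y, Sp1 and the TATA-binding protein.
Col1a2, chr6:4505468-4505617: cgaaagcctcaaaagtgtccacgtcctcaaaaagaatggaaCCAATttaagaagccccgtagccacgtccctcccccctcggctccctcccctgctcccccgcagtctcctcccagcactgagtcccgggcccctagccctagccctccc
Col3a1, chr1:45311388-45311537: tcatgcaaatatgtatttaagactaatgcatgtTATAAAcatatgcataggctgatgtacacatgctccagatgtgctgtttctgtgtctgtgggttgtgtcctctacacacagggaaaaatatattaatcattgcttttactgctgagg
Col5a1, chr2:27886275-27886424: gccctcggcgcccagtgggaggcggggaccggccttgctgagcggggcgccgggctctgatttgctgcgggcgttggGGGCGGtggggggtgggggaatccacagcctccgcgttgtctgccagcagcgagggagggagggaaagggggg
Col11a1, chr3:114030390-114030539: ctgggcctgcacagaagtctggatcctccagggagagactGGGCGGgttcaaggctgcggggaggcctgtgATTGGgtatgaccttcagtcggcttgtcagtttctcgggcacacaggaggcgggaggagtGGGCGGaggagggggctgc

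In these 150 bases, the 3 printed genes that rose held 3 different words: a CCAAT box in Col1a2, a TATA word in Col3a1 and a GC box in Col5a1. The TATA word of Col3a1 began 117 bases before the start. Col11a1 held 2 GC boxes and a CCAAT box on the opposite strand. Col1a1 and Col5a2, which also rose, had no entry among the promoter sequences used. The RefSeq start of Col1a2 differs from the gene start given above (4504814), so its window lies inside the gene. The other printed windows end just before the gene starts given above. In the longer window of 300 bases, from 250 before to 50 after the start, Col1a2 and Col5a1 each held 2 GC boxes. The promoter of Col5a3, not printed, held a CCAAT box and 2 GC boxes within the 150 bases. The G and C content was 62.7%, 37.3%, 74.7% and 64.7% in the order printed, against a median of 54.0% over all promoter windows. Among the 32851 promoter windows of the same length, 24.5% held a CCAAT box, 28.6% a GC box and 7.57% a TATA word. Sp1, and Nfya, Nfyb and Nfyc, the subunits of NF-Y, were not called in the expression data, with log2 fold changes from -1.63 to 0.87 (adjusted p = 1 for each from exactTest of edgeR).

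Together the 7 genes took up 0.281%, 0.282% and 0.299% of all counts in replicates 1 to 3 of the comparison cells and 0.732%, 0.914% and 0.901% in TICs. One read in 334 to 356 in the comparison group and one in 109 to 137 in TICs thus came from these genes. The ratio of the geometric means was 2.94, a log2 difference of 1.56 with a standard error of 0.11 (p = 0.1 in a two-sided exact permutation test, the smallest that 3 samples against 3 can give). Mitochondrial transcripts moved with the groups too, at 1.93% to 2.91% of counts in the comparison cells and 3.21% to 5.01% in TICs, and without them the collagen shares were 0.288% to 0.305% and 0.756% to 0.949%, so the difference was as large without them. Collagen I made up most of these counts, 75.2% to 83.7% in comparison cells and 83.8% to 85.5% in TICs. Of the counts of all 7 genes, Col1a2 alone took 21.6% to 24.7% in the comparison cells and 26.8% to 33.8% in TICs.

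**Figure D3:**
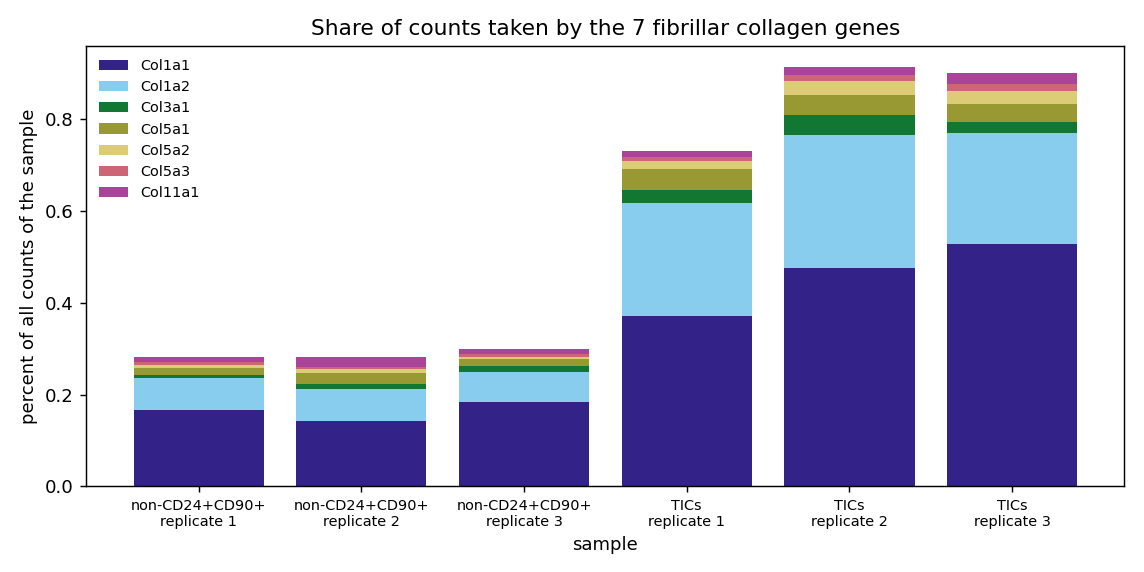
Percent of all counts of each sample (vertical axis, from 0) taken by the 7 genes, stacked by gene. The 3 TIC samples reach 0.732% to 0.914% and the comparison samples 0.281% to 0.299%, and Col1a1 and Col1a2 fill most of each bar.

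Per kilobase of merged exons, the order of the levels in TICs was Col1a1 (716.1 ± 148.9 CPM per kb), Col1a2 (213.7 ± 19.3), Col5a1 (51.3 ± 3.11), Col3a1 (32.7 ± 9.5), Col5a2 (26.7 ± 7.22), Col5a3 (18.5 ± 6.0) and Col11a1 (15.5 ± 4.96; SD, n = 3). From Col3a1 downward, each gene overlapped the next one over the 3 samples. In comparison cells the order began with the same 3 genes, at 246.2 ± 33.9, 53.1 ± 2.73 and 20.7 ± 5.8 CPM per kb, and the other 4 lay between 6.46 and 11.1 CPM per kb. Col11a1 came just after them in that group and last in TICs on this scale. The merged exons of Col1a2 (12426 bases) are far longer than its longest transcript (5348 bases). Divided by the longest transcript, Col1a2 came to 496.5 ± 44.9 CPM per kb in TICs. The order in TICs also changed: Col3a1, at 57.7 ± 16.8, stood above Col5a1, at 51.8 ± 3.14, and Col11a1, at 25.7 ± 8.24, above Col5a3, at 20.6 ± 6.67, each pair overlapping.

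Ratios between chains of 1 library do not depend on its normalization, and 5 were compared. Col1a1 to Col1a2 per length was 4.66, 3.88 and 5.41 in comparison cells and 2.84, 3.08 and 4.15 in TICs, or 1.85 to 2.58 and 1.35 to 1.97 with the longest transcripts. TIC replicate 3 overlapped the other group, and the log2 difference was -0.48 with a standard error of 0.22 (p = 0.2, two-sided exact permutation test). Col5a1 to Col5a2 went from 2.58, 3.44 and 3.75 to 2.90, 1.75 and 1.51, with TIC replicate 1 inside the range of the other group (log2 difference -0.71, standard error 0.33, p = 0.2, exact permutation test). Col3a1 to Col1a1 spanned 0.0289 to 0.0527 and 0.0303 to 0.06, which overlap almost fully (log2 difference 0.13, standard error 0.40, p = 0.6, exact permutation test). The ratios of both V/XI chains to Col5a1 were chosen after the data had been seen. Col11a1 to Col5a1 was 0.501, 0.583 and 0.493 in comparison cells and 0.207, 0.274 and 0.437 in TICs, without overlap (log2 difference -0.85, standard error 0.32, p = 0.1, the smallest possible in this exact permutation test). Col5a3 to Col5a1 overlapped, at 0.253 to 0.556 and 0.226 to 0.501 (log2 difference -0.28, standard error 0.50, p = 0.5, exact permutation test). Over the 5 ratios the adjusted p was 0.33 to 0.6. With 3 samples against 3 none of them could have gone below 0.1, so the test cannot tell which ratios differ.

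**Figure D4:**
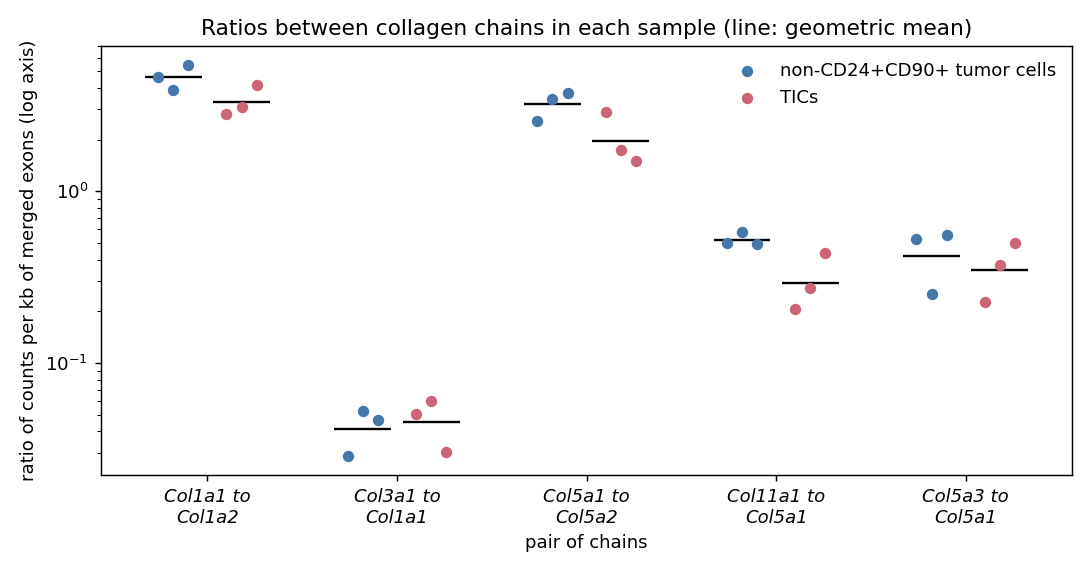
Ratio of counts per kb of merged exons (log axis) between pairs of fibrillar collagen chains, with 1 point per sample and a line at the geometric mean. The groups overlap in 4 of the 5 pairs, and in Col11a1 to Col5a1 the TIC samples (0.207 to 0.437) lie below the others (0.493 to 0.583).

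The genes that make, finish and remodel collagen fibrils were counted in 9 lists of 82 genes (the other fibrillar chains among them), of which 74 passed the filter. The test called 17 of them higher and 0 lower in TICs, where 1.36% of all genes were called higher and 0.189% lower. The quasi-likelihood test called 8 higher, where 0.402% of all genes were. At an unadjusted p below 0.05, 29 were higher and 2 lower, where 4.74% of all genes were higher and 3.11% lower. Of the genes for the fibril surface, 7 of 11 were called higher, with a median log2 fold change of 1.44, among them Col14a1, a fibril-associated collagen (2.06, standard error 0.34, adjusted p = 1.4e-05 from exactTest of edgeR), and Bgn, the small proteoglycan biglycan (1.44, standard error 0.27, adjusted p = 0.00026). Of the propeptide removal genes, 2 of 6 were called, Adamts2, the N-proteinase of procollagens I to III (1.69, standard error 0.33, adjusted p = 0.00057), and Pcolce, an enhancer of the C-proteinase (1.34, standard error 0.31, adjusted p = 0.0057 from exactTest of edgeR). Of the cross-linking enzymes, 2 of 5 were called, Loxl2 (2.17, adjusted p = 0.018) and Lox (1.23, adjusted p = 0.067), and neither was called by the quasi-likelihood test of edgeR. Among 7 genes of collagen cleavage 3 were called, led by Mmp14, a membrane-bound collagenase (1.25, adjusted p = 0.0064), and Mmp2, a gelatinase (1.33, adjusted p = 0.041 from exactTest of edgeR). Mmp13, a collagenase, was the other one, and of these 3 the quasi-likelihood test called only Mmp14.

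Other lists act inside the cell or at its surface. Of the 13 chain modification genes with enough counts, P3h3, a prolyl 3-hydroxylase family member, was the 1 called, with 103.9 to 119.6 CPM in TICs and 9.72 to 30.2 CPM in comparison cells (log2 fold change 2.59, standard error 0.45, adjusted p = 9.4e-05 from exactTest of edgeR). The median of that list was 0.65. Of the 7 folding and export genes 0 were called by exactTest or by the quasi-likelihood test of edgeR, and the median was 0.40. DESeq2 called 2 higher, where it called 1.89% of all genes higher. With an unadjusted p below 0.05 from exactTest, 2 were higher, compared with 4.74% of all genes. Serpinh1, the collagen chaperone HSP47, had a log2 fold change of 0.69 with a standard error of 0.27 (adjusted p = 0.32 from exactTest of edgeR and 0.0099 from DESeq2). Of 7 collagen receptors Mrc2, an endocytic receptor for collagen, was called (1.79, standard error 0.54, adjusted p = 0.096 from exactTest of edgeR). Of 15 transcriptional regulators Tgfbr2, a TGF-β receptor, was called (1.05, standard error 0.29, adjusted p = 0.033 from exactTest of edgeR). At an unadjusted p below 0.05, 2 of the 15 were higher, compared with 4.74% of all genes. The 2 lower ones were Smad3 (-0.88) and Tgfb3 (-0.65), where 3.11% of all genes were lower. Every TIC sample lay above every comparison sample for 2 of the 15 and below for 3, compared with 7.69% and 7.55% of all genes. The quasi-likelihood test of edgeR called neither Mrc2 (adjusted p = 0.27) nor Tgfbr2 (0.12). Of the 24 collagen genes outside the fibrillar class that passed the filter, 8 were called higher and 0 lower, compared with 1.36% and 0.189% of all genes. Col12a1 and Col14a1 are among these 8 and were also counted with the fibril surface genes. The median log2 fold change of the 24 was 0.99.

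Markers of other cell types moved with the groups. The 14 fibroblast markers summed to 957.4 to 1113.5 CPM in comparison cells and to 2071.8 to 2473.8 CPM in TICs, 2.13 times as much on average. Of the 13 with enough counts, 7 were called higher by exactTest and 2 by the quasi-likelihood test, compared with 1.36% and 0.402% of all genes. Of the defining pair, Dpt rose (log2 fold change 1.54, standard error 0.36, adjusted p = 0.0077 from exactTest of edgeR), while Pdgfra had 58.8 to 84.2 CPM in TICs and 42.4 to 51.3 CPM in the other group (adjusted p = 0.85), and 1 marker, Tcf21, was at 0 in all samples. In bulk RNA, more cells of a type and more RNA per cell cannot be told apart. The 13 pericyte and smooth muscle markers summed to 623.5 to 848.4 CPM against 1110.0 to 1757.6 CPM in TICs, with 1 of 13 called (Rgs5, log2 fold change 1.45, adjusted p = 0.00047 from exactTest of edgeR), and their other defining marker Cspg4 reached 2.99 to 15.7 against 32.3 to 43.5 CPM. Rgs5 alone had a mean of 662.4 CPM in TICs and 242 CPM in comparison cells. Acta2, Myh11 and Cnn1 of this list had log2 fold changes of -0.01, 0.07 and -0.05, with standard errors of 0.35, 0.54 and 1.44. The error of Cnn1 leaves room for a large difference in either direction. Of the 13, 11 had a positive log2 fold change, compared with 6061 of all 12192 genes, and the median was 0.96. The part of either cell type in the rise of the collagen genes was not tested.

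The sum of the 7 collagen genes, most of it collagen I, was also set against the fibroblast markers. The summed counts of the collagen genes were 2.98, 2.58 and 2.60 times those of the markers in comparison cells and 3.52, 3.71 and 4.61 times in TICs. Every TIC sample was above every other sample, with a log2 difference of 0.53 and a standard error of 0.14 (p = 0.1, the smallest possible in the exact permutation test). The difference was 0.41 without TIC replicate 3, which had the highest ratio. Sums weigh abundant genes most. Single markers had log2 fold changes from 0.32 to 1.74, with a median of 1.18. Those of the 7 members ran from 0.48 to 2.05, with a median of 1.54, so the ranges overlap. How far the ratio depends on the markers chosen was not tested. Single members were not tested in this way, and the folds of Col11a1 (1.39) and Col5a3 (2.15) were below or near the 2.13 of the summed markers.

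**Figure D5:**
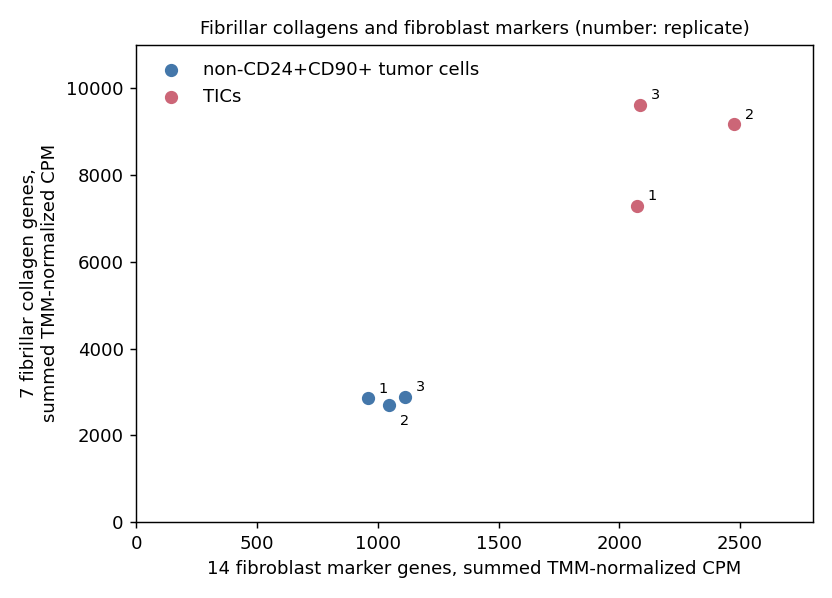
Summed TMM-normalized CPM of the 7 fibrillar collagen genes (vertical) against that of the 14 fibroblast markers (horizontal), with 1 point per sample and both axes from 0. The TIC samples are higher on both axes, at 2071.8 to 2473.8 CPM of markers and 7289.6 to 9613.1 CPM of collagens, against 957.4 to 1113.5 and 2695.7 to 2891.8 CPM.

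No other marker list had its summed level higher in every TIC sample than in every comparison sample. The 11 endothelial markers summed to 241.2 to 336.2 CPM in comparison cells and to 323.8, 627.6 and 1511.9 CPM in TIC replicates 1 to 3. The TIC mean was 2.73 times that of the comparison cells, with the highest value in TIC replicate 3, and only TIC replicate 1 overlapped the other group. All 11 log2 fold changes were positive, compared with 6061 of all 12192 genes. Their median was 1.21, beside 1.18 for the fibroblast markers. Pecam1 and Cdh5 were present in every sample. None of the 3 tests called an endothelial marker, though 7 of 11 had an unadjusted p below 0.05 with exactTest of edgeR, all higher in TICs, compared with 4.74% of all genes. The part of endothelial cells in the rise of the collagen genes was not tested. The summed level of the 12 luminal epithelial markers was lower in every TIC sample, at 7672.1 to 10629.1 CPM against 11273.9 to 11868.1 CPM, though 0 of 11 passed exactTest or the quasi-likelihood test of edgeR. Of these, 4 had every TIC sample below every comparison sample, compared with 7.55% of all genes. With an unadjusted p below 0.05, 2 were lower, compared with 3.11%, and 2 were called lower by DESeq2, compared with 0.615%. The 5 basal markers overlapped, at 364.1 to 590.8 CPM in TICs and 448.6 to 997.4 CPM in the other group, with Krt5 and Krt14 present in every sample. The 10 leukocyte markers summed to at most 98.0 CPM in any sample and overlapped. Of these, 1 of 4 tested was called higher by exactTest, compared with 1.36% of all genes. This was Lyz2, a myeloid lysozyme, at 4.27 to 11.8 CPM in the comparison cells and 27.9 to 75.0 CPM in TICs (log2 fold change 2.68, standard error 0.63, adjusted p = 0.012 from exactTest and 0.14 from the quasi-likelihood test of edgeR). Cd68 had 4.07 to 16.5 CPM in TICs and 3.7 to 17.5 CPM in the other group. The adipocyte markers Adipoq and Plin1 were at 0 in all 6 samples.

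The genes outside the 7 whose profile over the 6 samples was most like the mean log2 CPM of the fibrillar collagens were Fbln1 (Pearson r = 0.999), Serpinf1 (0.993), Rgs5 (0.990), Col12a1 (0.990) and Col8a1 (0.983), out of 3779 genes with a mean of at least 50 CPM. These coefficients describe 6 samples that fall into 2 groups, so any gene that differs in the same way scores high, and Fbln1 and Rgs5 are also on the fibroblast and pericyte marker lists. Col12a1 had 97.5, 97.5 and 76.5 CPM in comparison cells and 199.8, 265.3 and 288.2 CPM in TICs. Among the members themselves, r over the same samples was 0.96 between Col1a1 and Col1a2 and 0.94 between Col5a1 and Col5a2. Col11a1 followed the others least closely, with r between 0.48 and 0.72.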

How the data were processed

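RNA-seq samples of sorted TICs and of the comparison cells (3 each) were grouped by the sample labels and numbered in accession order. Per the labels and the study's methods, the authors used Trimmomatic 0.32 for trimming and STAR 2.4.0 for alignment to GRCm38, removed reads that were not uniquely mapped with SAMtools 1.1 and obtained gene counts from HTSeq. Raw counts, without normalization, were deposited. The strand setting, HTSeq version and annotation release are not given in the sources used here. Of the 50-base words of the members' transcripts, 0 were shared with another gene for 6 members and 1.67% for Col3a1, all with an annotated miRNA entry at the same place in that gene. The 2 antisense genes that overlap exons of Col5a1 had 0 counts.

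Gene symbols, positions and lengths came from GENCODE M21 (40340 of 41388 genes matched, the others held 0.13% of counts). In edgeR 4.0.16 under R 4.3.3, genes above 1 CPM in at least 3 samples were kept (12192), normalized by TMM and compared with exactTest on tagwise dispersions, with an adjusted p below 0.1. The study's methods name exactTest, its p-value adjustment and a CPM filter, while the filter's values, TMM and tagwise dispersions were chosen here. Standard errors came from the negative binomial fit. Single values were compared by exact permutation (scipy 1.17.1). DESeq2 1.42.0, the quasi-likelihood test, other scalings, filters and single samples left out were the alternatives. In a single simulation of counts of these genes, 200 genes were changed 4-fold, drawn only from genes above a minimum mean CPM. There exactTest recovered 85.5% with 20.1% of its calls false, more than an adjusted p of 0.1 is meant to allow. The quasi-likelihood test recovered 85% with 10.5% false. Recovery of changed genes at low levels was not tested. DESeq2 had 42.5% false calls. Depths of 6781239 to 9100552 counts put 3 counts at 0.33 to 0.44 CPM, for counting error only.

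The members and gene lists were chosen with earlier results of these data known. Named genes are the members, the other fibrillar chains, sort and defining markers, up to 2 called genes per pathway list with the smallest p, and the 5 genes most alike in profile. Outside this rule, Mmp13, Lyz2, Serpinh1, Tcf21, Smad3, Tgfb3, Acta2, Myh11, Cnn1 and the Sp1 and NF-Y genes were named after their values were seen.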

Additional observations from a re-analysis of the deposited data

How the results depend on the processing

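The count of 5 members called held under all 10 other tests, scalings, filters, dispersions and thresholds, and ranged from 4 to 6 with each sample left out. With a sample left out, the log2 fold changes ranged from 1.41 to 1.70 for Col1a1, 1.94 to 2.08 for Col1a2, 1.40 to 1.83 for Col3a1, 1.19 to 1.56 for Col5a1, 1.85 to 2.27 for Col5a2, 0.90 to 1.35 for Col5a3 and 0.22 to 0.84 for Col11a1. The calls that changed were that of Col5a1, lost without comparison replicates 1 or 3, and that of Col5a3, gained without TIC replicate 1. Without TIC replicate 3, which stood apart on the first principal component, 5 members were called. The count was also 5 without TIC replicate 2, which stood apart on the second.

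Counts over all genes moved far more. Of the 166 genes higher in TICs, the count became 49 with the quasi-likelihood test, 108 with every gene that had a count and 109 at an adjusted p below 0.05, and 69 (without comparison replicate 3) to 225 (without TIC replicate 1) with a sample left out. It was 85 and 88 without comparison replicates 1 and 2, and 88 and 106 without TIC replicates 2 and 3. The 23 lower genes became 1, 4 and 7 under the same settings, 75 with DESeq2, and 2 (without comparison replicates 1 or 2) to 98 (without TIC replicate 1) with a sample left out, with 3 without comparison replicate 3 and 14 without TIC replicate 2. The 17 pathway genes called higher became 8 with the quasi-likelihood test and 9 to 20 with a sample left out, the fewest without comparison replicate 2, and 10 without comparison replicate 3. The causes were not tested. No paired analysis was possible because the labels give the samples no replicate numbers that the groups share. Pools of both groups may come from the same mice, which the sources used here do not settle. All tests treated the samples as independent.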
